A study of Homo sapiens with 6 samples.

Results

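The ATP-binding cassette (ABC) transporters were examined in the ovarian carcinoma line UWB1.289, which is human and lacks functional BRCA1, after knockdown of the histone acetyltransferase HBO1 (gene KAT7). Members were all probes whose platform symbol was ABC, one letter from A to G and a number, which gave 70 probes for 42 genes out of 30109 named probes for 20044 genes. The rule used the name alone and no measured value, though it was chosen with earlier results of these data known. The samples were 3 arrays of cells transfected with a scramble siRNA (siCTRL) and 3 arrays of cells transfected with an HBO1 siRNA (siHBO1), with total RNA taken 48 h after transfection in 12-well plates. All 6 samples are of the same line and have the same medium and time, and differ only in the siRNA as far as the labels say. Whether each replicate is a culture of its own is not in the labels. The p-values therefore measure the spread among these 6 arrays only, and that spread may be technical. One siRNA label was used for HBO1, and other effects of that siRNA were not separated from loss of HBO1.

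ABC proteins couple ATP hydrolysis at a pair of nucleotide-binding domains to the movement of a substrate across a membrane. The family is divided by sequence into subfamilies A to G. Many A and G members move sterols and phospholipids, the B subfamily holds P-glycoprotein (ABCB1), bile exporters and mitochondrial transporters, the C subfamily holds the multidrug resistance proteins and the sulphonylurea receptors, and the D subfamily serves peroxisomes and lysosomes. The E and F members have no membrane domain and act in translation. In ovarian carcinoma the family is best known for drug efflux by ABCB1, ABCC1 and ABCG2.

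In siHBO1 cells, 3 of the 23 tested ABC genes passed the test (13.0%, beside 3.19% of all named genes tested). ABCG4, a sterol exporter known mainly from brain, rose 2.34-fold. ABCC3, the exporter MRP3 for glucuronide conjugates and bile salts, rose 1.39-fold. ABCA7, a phospholipid transporter linked to phagocytosis and to the lipidation of apolipoproteins, fell to 59.3% of the control level. The other 20 tested genes did not pass, and both ABCB1 and ABCG2 were not above background on any array. On leaving out 1 array the calls of ABCC3 and ABCA7 always ended, and that of ABCG4 held in 2 such fits. With the background left in, the log2 fold changes of ABCG4 and ABCA7 were 0.64 and -0.42, against 1.23 and -0.75 as reported.

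The sequences before the annotated starts of ABCG4 and ABCA7 are shown with those of 2 liver exporters of bile, ABCB11 and ABCC2, whose transcripts were not above background here. They show the contrast in CpG content that separated many, but not all, measured members from many unmeasured ones (described at the end). Each is the 250 bases before the RefSeq gene start in build GRCh38.p14, on the gene's strand, and capitals mark each CpG dinucleotide. ABCG4 lies at chr11:119148802-119149051 (plus strand), ABCA7 at chr19:1039857-1040106 (plus strand), ABCB11 at chr2:169031325-169031574 (minus strand) and ABCC2 at chr10:99782390-99782639 (plus strand).
ABCG4: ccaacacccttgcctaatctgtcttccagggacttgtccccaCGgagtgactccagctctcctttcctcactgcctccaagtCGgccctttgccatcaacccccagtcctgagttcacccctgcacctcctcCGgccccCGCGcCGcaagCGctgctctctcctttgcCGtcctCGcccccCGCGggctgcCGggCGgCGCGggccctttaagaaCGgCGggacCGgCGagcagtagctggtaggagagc
ABCA7: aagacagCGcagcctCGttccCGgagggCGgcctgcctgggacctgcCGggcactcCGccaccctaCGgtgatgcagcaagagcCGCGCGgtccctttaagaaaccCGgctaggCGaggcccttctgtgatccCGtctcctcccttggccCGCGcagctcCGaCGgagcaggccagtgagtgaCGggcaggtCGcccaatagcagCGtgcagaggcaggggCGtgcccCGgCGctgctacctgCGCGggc
ABCB11: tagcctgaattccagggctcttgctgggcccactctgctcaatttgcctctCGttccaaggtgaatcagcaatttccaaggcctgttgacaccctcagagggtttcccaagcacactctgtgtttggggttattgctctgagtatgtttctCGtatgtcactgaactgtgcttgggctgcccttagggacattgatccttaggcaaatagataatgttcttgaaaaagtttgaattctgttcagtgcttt
ABCC2: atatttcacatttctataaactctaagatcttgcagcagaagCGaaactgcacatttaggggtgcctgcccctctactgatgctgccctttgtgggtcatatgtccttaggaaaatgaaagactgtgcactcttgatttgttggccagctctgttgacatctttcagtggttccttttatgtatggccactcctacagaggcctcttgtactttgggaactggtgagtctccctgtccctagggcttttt

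The arrays were alike in their detection. Between 20546 and 21507 of 47316 probes had a detection p under 0.05 per array. KAT7, the siRNA target, read 7.98, 7.93 and 7.56 in siCTRL and 5.59, 6.29 and 5.98 in siHBO1 (normalised log2 intensity), which left 27.3% of the control signal (limma adjusted p = 0.0187). With the background left in, the log2 fold change of KAT7 was -0.74. Its call ended without siCTRL replicate 2 or 3 or without siHBO1 replicate 1 or 2, with an adjusted p of at most 0.0965. All 9 markers of ovarian serous carcinoma epithelium, among them PAX8, WT1, EPCAM and KRT7, passed the detection filter. Of these MUC16 (1.33, adjusted p = 0.0243) and CDH1 (0.76, adjusted p = 0.04) rose, and the summed linear level of the 9 was 69904 to 74812 in siCTRL and 74451 to 80955 in siHBO1. Of 11 markers of other cell types with a probe, PTPRC, CD3E, VWF, LUM and APOH did not pass the detection filter and 6 passed. The summed linear level of these other markers was 1460 to 1712 in siCTRL and 1781 to 1945 in siHBO1, and 0 of them were called by limma (adjusted p = 0.0989 for CD14 and 0.102 for PECAM1). The part of either marker list in the results below was not tested.

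A probe was tested when it was detected on at least 3 of 6 arrays, and a gene was represented by its tested probe with the highest mean signal. By this filter 30 of the 70 ABC probes were tested, for 23 of the 42 genes (54.8%, against 61.0% of all named genes). Tested genes numbered 7 of 12 in subfamily A, 3 of 8 in B, 6 of 10 in C, 1 of 3 in D, 1 of 1 in E, 3 of 3 in F and 2 of 5 in G. Of the 19 genes that were not tested, 17 had every probe undetected on all 6 arrays. The other 2 were ABCB4, a phosphatidylcholine exporter of bile (detected on 1 siHBO1 array), and ABCB8, a mitochondrial transporter (detected on 1 array of each group). ABCC1 and ABCC6 were not analysed here.

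**Figure D1:**
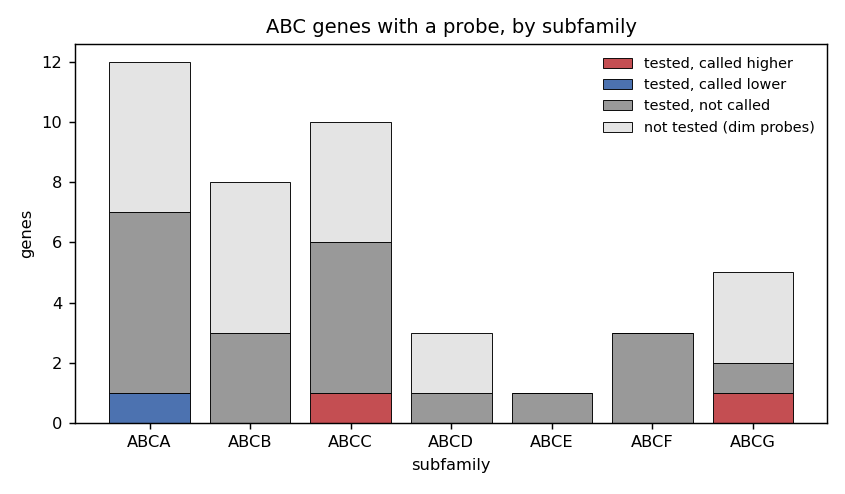
Number of ABC genes with a probe in each subfamily (bars, axis in genes), split by whether the gene was tested and by its call in siHBO1 against siCTRL. The 3 calls lie in subfamilies A, C and G, and the 4 genes of subfamilies E and F were all tested.

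Among the tested ABC genes, 2 were called higher and 1 lower at a Benjamini-Hochberg adjusted p under 0.05 over all 21333 tested probes. That is 13.0% of 23 genes, beside 3.19% of all 12227 named genes tested (1.91% higher and 1.28% lower) and 2.73% of all probes (1.47% higher and 1.26% lower). The share rests on 3 genes, and 2 of them had adjusted p values close to the threshold. At an unadjusted p under 0.05 there were 3 higher and 4 lower ABC genes, 30.4% of those tested, beside 23.8% of all named genes (12.9% higher and 10.9% lower). The groups did not overlap for 8 ABC genes, 3 higher and 5 lower, which is 34.8% beside 30.9% of all named genes (16.7% higher and 14.2% lower). The median log2 fold change was 0.03 over the ABC genes and 0.01 over all named genes. Of the ABC genes 13 (56.5%) lay within 0.2 of zero on the log2 scale, beside 59.1% of all named genes. By these wider counts and by its median the family lay near the whole array.

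**Figure D2:**
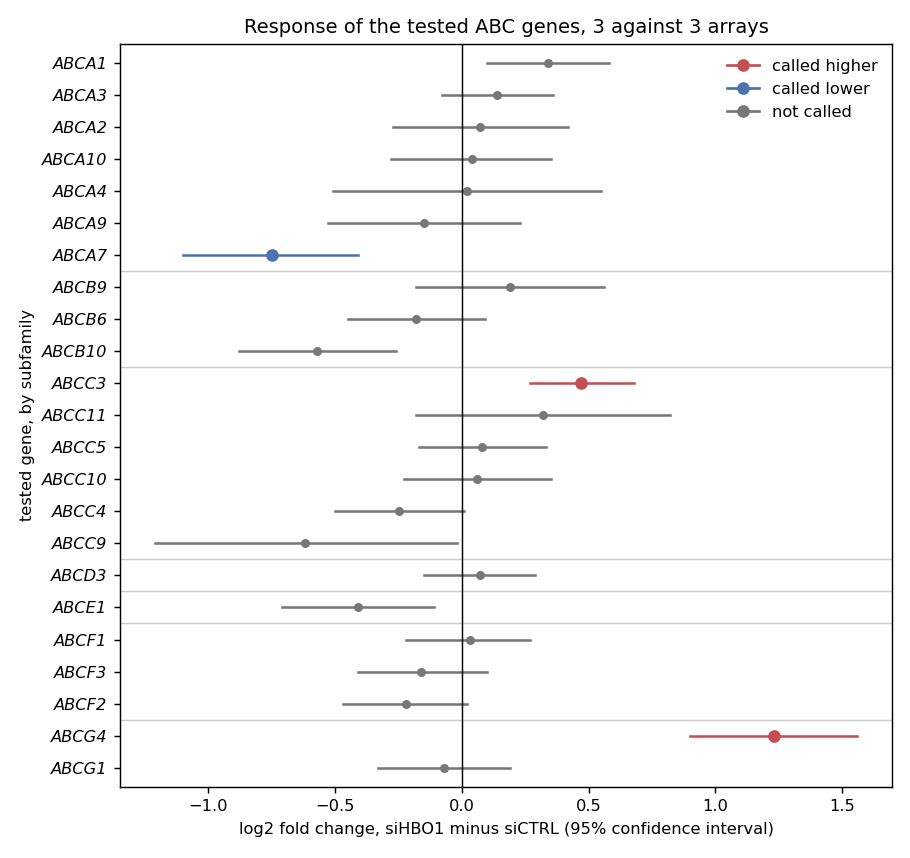
Log2 fold change, siHBO1 minus siCTRL, of the 23 tested ABC genes (points) with limma's 95% confidence interval (lines), ordered by subfamily. ABCG4 at 1.23, ABCC3 at 0.47 and ABCA7 at -0.75 were called, and 13 of the 23 points lie above zero and 10 below.

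Among the multidrug exporters 3 were not above background on any array, 4 were tested and not called, and ABCC3 rose. ABCB1, the P-glycoprotein that removes taxanes and anthracyclines from cells, read 4.95, 5.32 and 5.13 in siCTRL and 4.94, 5.11 and 5.47 in siHBO1 on its brighter probe, with detection p values from 0.131 to 0.538. ABCG2, the breast cancer resistance protein, read 4.77, 4.88 and 4.78 in siCTRL and 4.84, 4.81 and 4.70 in siHBO1, with detection p values from 0.644 to 0.965. Neither was well above background in either group, so no fold is given for them, and only an upper bound on either level can be read from these arrays. ABCC2, the canalicular exporter MRP2, was likewise undetected on every array.

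Of the 8 multidrug exporters with a probe, 5 were tested, 1 rose and 0 fell, with a median of 0.08. Over all named genes 1.91% were called higher and 1.28% lower. ABCC3 read 11.45, 11.50 and 11.55 in siCTRL and 11.96, 12.04 and 11.93 in siHBO1. The siHBO1 arrays all lay above the siCTRL arrays, with means of 11.50 ± 0.05 and 11.97 ± 0.06 (SD, n = 3 each). The log2 fold change was 0.47 (SE 0.09, 95% confidence interval 0.27 to 0.68, adjusted p = 0.0429). In a bulk sample a change in the number of cells that express a gene and a change in the RNA per cell cannot be told apart. The raw bead signal of ABCC3 was 3063 to 3365 in siCTRL and 4026 to 4091 in siHBO1, far from background, and the log2 fold change was 0.45 with the background left in. The call ended with median scaling in place of quantile normalisation (0.38, adjusted p = 0.0679), with a replicate block (adjusted p = 0.0681), with no detection filter (adjusted p = 0.0803) and on leaving out any of the 6 arrays (adjusted p from 0.0648 to 0.15).

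The other 4 tested multidrug exporters were not called. ABCC4, the exporter MRP4 of cyclic nucleotides and nucleotide analogues, read 9.70, 9.88 and 9.87 in siCTRL and 9.59, 9.43 and 9.69 in siHBO1. Its arrays did not overlap, at -0.25 (95% confidence interval -0.50 to 0.01, adjusted p = 0.244), and its second probe was at -0.13. ABCC5, the related exporter MRP5, was at 0.08, 0.01 and -0.29 on 3 probes, the last of them dim. ABCC10 (MRP7), an exporter of taxanes, was at 0.06 and ABCC11 (MRP8) at 0.32, and the intervals of both crossed zero (-0.23 to 0.35 and -0.18 to 0.82). The ABCC11 probe is dim, and its value was 0.09 with the background left in, 0.54 without siCTRL replicate 1, 0.18 without siCTRL replicate 2 and 0.19 without siHBO1 replicate 3.

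Set against ABCC3 within subfamily C, the change of ABCC4 was lower by 0.72 on the log2 scale, that of ABCC5 by 0.39 and that of ABCC10 by 0.42, and in each case the per-array difference between the probes did not overlap between groups. The change of ABCC11 was lower by 0.15, with overlapping groups. Each called gene was set against the other tested genes of its subfamily in this way, and 10 of 12 such differences had groups apart. Each called gene had groups apart by itself, and the same share over pairs of all named genes was not computed. The called genes entered these pairs because of their change, so the differences are a description with no test.

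The last tested member of subfamily C was ABCC9, the sulphonylurea receptor SUR2 that regulates ATP-sensitive potassium channels. It read 5.77, 6.61 and 6.12 in siCTRL and 5.96, 5.37 and 5.33 in siHBO1, and it was detected on 3 siCTRL arrays and 1 siHBO1 array. The groups overlapped, and the log2 fold change of -0.62 was not called (SE 0.25, adjusted p = 0.218) and shrank to -0.18 with the background left in. Without siCTRL replicate 2 it was -0.39.

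**Figure D3:**
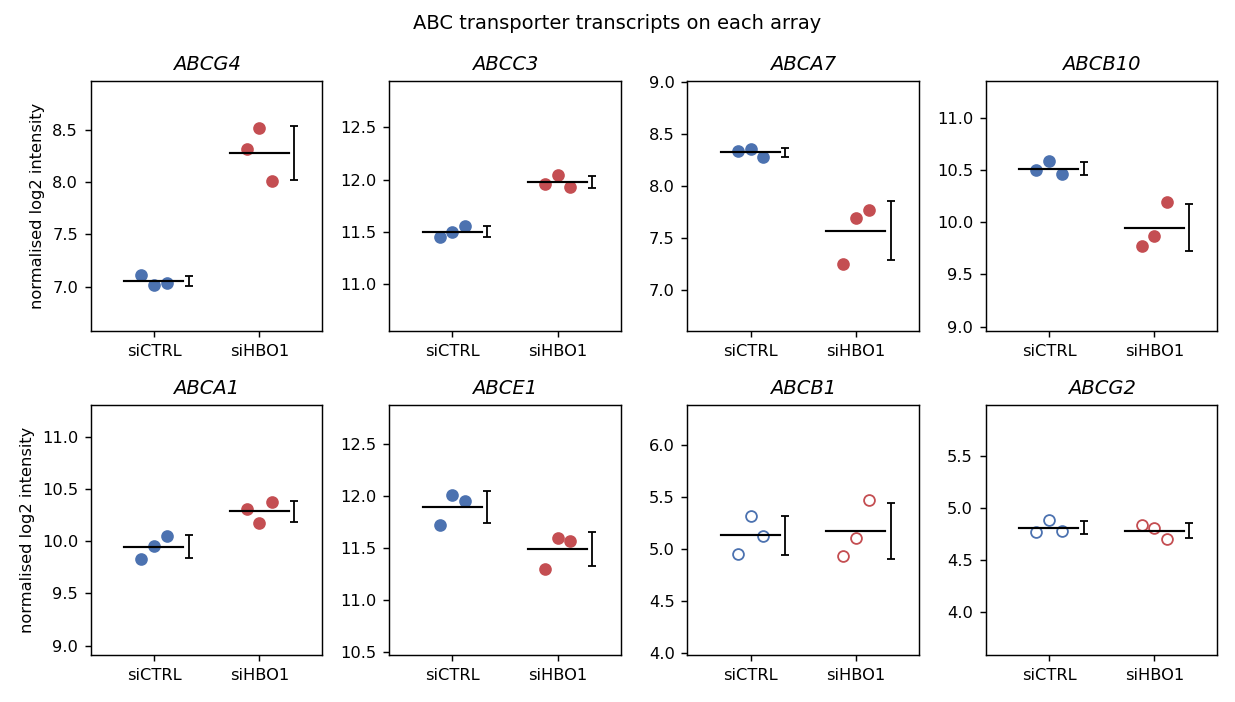
Normalised log2 intensity of 8 ABC genes on each array (points; blue siCTRL, red siHBO1; filled where the detection p was under 0.05, open where not), with the group mean (line) and SD (bar); each panel spans the same range of log2 units. ABCG4 and ABCC3 lie higher and ABCA7 lower on all siHBO1 arrays, while every ABCB1 and ABCG2 point is open.

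Among sterol and phospholipid transporters, 1 gene rose and 1 fell, in different subfamilies, beside 1.91% of all named genes called higher and 1.28% lower. Of 16 such genes with a probe 9 were tested, with a median of 0.04. ABCG4 read 7.11, 7.02 and 7.03 in siCTRL and 8.32, 8.52 and 8.01 in siHBO1. The lowest siHBO1 array lay well above the highest siCTRL array, and the means were 7.05 ± 0.05 and 8.28 ± 0.26 (SD, n = 3 each). The log2 fold change was 1.23 (SE 0.14, 95% confidence interval 0.90 to 1.56, adjusted p = 0.019). ABCG4 has a single probe, which was detected on all 6 arrays with raw signals of 306.9 to 342.8 in siCTRL and 453.9 to 514.3 in siHBO1. These signals are close enough to background for the size to depend on how it is removed, and with the background left in it was 0.64 on the log2 scale (adjusted p = 0.00194). ABCG4 passed under all 10 processing alternatives computed for it, including the replicate block (adjusted p = 0.0443). On leaving out 1 array it passed without siCTRL replicate 1 (adjusted p = 0.0498) or siHBO1 replicate 3 (adjusted p = 0.0311). It did not pass without siCTRL replicate 2 (adjusted p = 0.1), siCTRL replicate 3 (0.0862), siHBO1 replicate 1 (0.0681) or siHBO1 replicate 2 (0.0707), with log2 fold changes between 1.12 and 1.22.

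ABCG1, which exports cholesterol to high-density lipoprotein and is the nearest relative of ABCG4, read 8.73, 8.85 and 8.54 in siCTRL and 8.61, 8.56 and 8.72 in siHBO1. The groups overlapped, at -0.07 (SE 0.11, 95% confidence interval -0.33 to 0.19). The change of ABCG4 exceeded that of ABCG1 by 1.30 on the log2 scale, with groups apart. A second ABCG1 probe was undetected on all siCTRL arrays and detected on 2 of 3 siHBO1 arrays, and it was not tested. The other 3 ABCG1 probes were undetected. ABCG5 and ABCG8, which form one sterol exporter of liver and intestine and lie beside each other on chromosome 2, were both undetected.

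ABCA7 read 8.34, 8.36 and 8.28 in siCTRL and 7.25, 7.70 and 7.77 in siHBO1. The groups did not overlap, with means of 8.33 ± 0.05 and 7.57 ± 0.28 (SD, n = 3 each), and siHBO1 replicate 1 was the lowest. The log2 fold change was -0.75 (SE 0.15, 95% confidence interval -1.10 to -0.41, adjusted p = 0.049). With the background left in it was -0.42 (adjusted p = 0.00994). The call ended with the replicate block (adjusted p = 0.0663), with no detection filter (0.0817) and on leaving out any array, with adjusted p from 0.0547 to 0.16 and log2 fold changes from -0.85 to -0.60. A second ABCA7 probe was undetected on all arrays, so the fall rests on 1 probe.

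ABCA1, which loads cholesterol and phospholipid onto apolipoprotein A-I, read 9.83, 9.96 and 10.05 in siCTRL and 10.31, 10.18 and 10.38 in siHBO1. Its groups did not overlap, and at 0.34 (SE 0.10, adjusted p = 0.125) it was not called. It passed under 1 alternative, no background correction (0.29, adjusted p = 0.0424). The change of ABCA7 minus that of ABCA1 was -1.09 on the log2 scale, with groups apart. ABCA3, the lipid transporter of lung surfactant, was at 0.14, ABCA2, a transporter of endosomes and lysosomes, at 0.07, and ABCA4, the retinal transporter, at 0.02. ABCA9 and ABCA10, from a cluster of related genes on chromosome 17, were at -0.15 and 0.04, while ABCA5, ABCA6 and ABCA8 of the same cluster were undetected on all arrays. The signs of ABCA2, ABCA4 and ABCA10 flipped under at least 1 alternative. ABCA12 and ABCA13 were undetected.

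Among the 3 tested genes of subfamily B, the largest difference was that of ABCB10, a transporter of the inner mitochondrial membrane needed for normal haem synthesis. It read 10.50, 10.59 and 10.46 in siCTRL and 9.77, 9.87 and 10.20 in siHBO1. The groups did not overlap, and the log2 fold change of -0.57 (SE 0.13, 95% confidence interval -0.88 to -0.26) fell just short of the threshold (adjusted p = 0.067). It passed under 7 of 10 processing alternatives, among them the authors' processed values (-0.55, adjusted p = 0.0419), and without siHBO1 replicate 3 (-0.70, adjusted p = 0.0491), but not on leaving out any other array. ABCB6, a porphyrin transporter, was at -0.18 (95% confidence interval -0.45 to 0.09). ABCB9, a peptide transporter of lysosomes, was at 0.19 on its brighter probe and 0.06 on another. ABCB1, ABCB5 and ABCB11 were undetected.

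**Figure D4:**
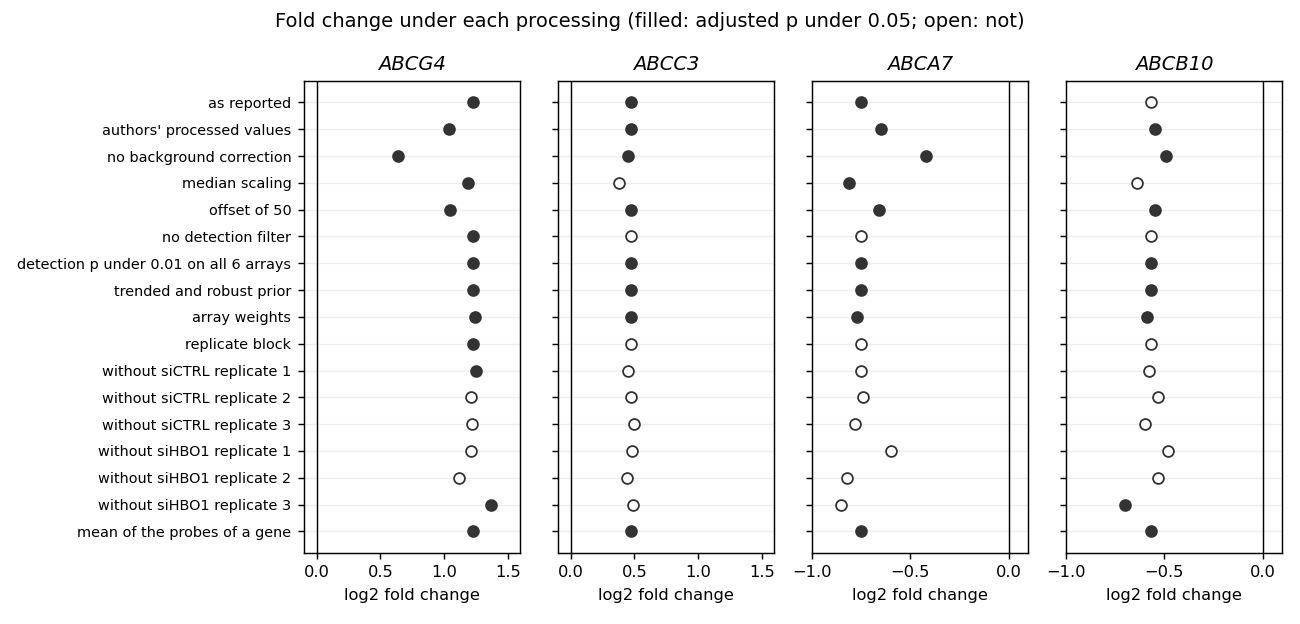
Log2 fold change of 4 ABC genes (one panel each) as reported, under each processing alternative and with each array left out; filled points have an adjusted p under 0.05 and open points do not. ABCG4 ranges from 0.64 to 1.37 and ABCA7 from -0.85 to -0.42, each at the end nearest zero without background correction, and every point of a gene lies on one side of zero.

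ABCD3, a peroxisomal importer of branched fatty acids and bile acid precursors, was the only tested member of subfamily D. It read 9.85, 9.95 and 9.97 in siCTRL and 9.89, 10.03 and 10.06 in siHBO1, and these overlapped (0.07, 95% confidence interval -0.15 to 0.29). ABCD2 and ABCD4 were undetected.

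The 4 soluble members were all detected and 0 were called by limma. At an unadjusted p under 0.05 there was 1 lower gene, ABCE1, and 0 higher, beside 10.9% of all named genes lower and 12.9% higher. Their median log2 fold change was -0.19, and that of the 19 tested members with membrane domains was 0.06. ABCE1, which splits ribosomes after termination, read 11.72, 12.01 and 11.95 in siCTRL and 11.30, 11.59 and 11.57 in siHBO1. The groups did not overlap, at -0.41 (SE 0.13, adjusted p = 0.128), and a second probe was at -0.29 with overlapping groups. ABCE1 passed under 2 alternatives, no background correction (adjusted p = 0.0338) and the trended and robust prior (adjusted p = 0.022). ABCF2 read 11.30, 11.47 and 11.57 in siCTRL and 11.27, 11.15 and 11.26 in siHBO1, at -0.22 (adjusted p = 0.268) with groups just apart. Its second, dimmer probe was at -0.49 (SE 0.12, adjusted p = 0.0755). ABCF1, which binds initiation factor eIF2, was at 0.03 and -0.18 on 2 probes, and ABCF3 at -0.16.

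Genes that work with the transporters were examined from lists of known regulators, partners and substrates' enzymes. Of 16 tested genes listed as transcriptional regulators of ABC genes 2 rose and 0 fell, where 3.19% of all named genes were called. There were 13 positive values and a median of 0.22, beside 0.01 over all named genes. The list includes KEAP1 (0.05) and MYLIP (0.1), which are not transcription factors. At an unadjusted p under 0.05 there were 7 higher and 1 lower, where 12.9% of all named genes were higher and 10.9% lower, and the unadjusted counts of the lists that follow stand beside the same shares. HIF1A, the oxygen-regulated factor known to act on several ABC genes, rose by 0.51 (SE 0.08, adjusted p = 0.0334), with values of 0.12 and 0.57 on its other probes. FOXO3, a forkhead factor restrained by AKT, rose by 0.48 (SE 0.09, adjusted p = 0.047), with 0.21 on another probe. Both calls ended with median scaling, with no detection filter, with the replicate block and on leaving out any array. With median scaling the list's median was 0.13, beside -0.05 over all named genes. The FOXO3 call also ended when its probes were averaged (0.35, adjusted p = 0.0703). The groups did not overlap, upward, for 9 of the 16, where 16.7% of all named genes did so. NFE2L2, the NRF2 factor known to act on ABCC3, was at -0.07 (SE 0.10).

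Of 9 tested genes of lipid acceptors and sterol traffic, 1 fell and 0 rose, with a median of -0.13. Over all named genes 1.28% were called lower and 1.91% higher. SCARB1, the receptor that takes up cholesterol from high-density lipoprotein, read 10.78, 10.93 and 10.84 in siCTRL and 10.33, 9.96 and 10.26 in siHBO1. Its groups did not overlap, and it fell by 0.67 (SE 0.12, adjusted p = 0.0413), a call that ended with the replicate block, with no detection filter and on leaving out any array. Of 22 tested genes listed under phase II conjugation and glutathione synthesis, 0 were called by limma. At an unadjusted p under 0.05, 2 of them were higher and 2 lower. The largest values were -0.76 for GSTM3 (adjusted p = 0.074), a glutathione transferase, and 0.41 for EPHX1 (adjusted p = 0.0813), microsomal epoxide hydrolase. The glucuronosyltransferases UGT1A1, UGT1A6 and UGT2B7 of that list did not pass the detection filter. The list therefore says little about the enzymes that make the glucuronide substrates of ABCC3.

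Of 8 tested uptake carriers 0 were called by limma on their brightest probe, with 3 higher and 1 lower unadjusted. SLCO3A1, an organic anion transporter, was at 0.78 on that probe (adjusted p = 0.0555) and was called on a dimmer one at 0.86 (adjusted p = 0.0226). SLC22A4, an ergothioneine carrier, was at 0.41 (adjusted p = 0.0904). Membrane scaffolds had 0 of 4 called by limma and 0 at an unadjusted p under 0.05 in either direction, with -0.15 for RDX and 0.06 for EZR. Partners of the mitochondrial, peroxisomal and lysosomal members had 0 of 11 called by limma, with 2 higher and 1 lower unadjusted. Values there were -0.43 for SLC25A37, the mitochondrial iron importer that binds ABCB10 in mouse cells (adjusted p = 0.159), and 0.37 for LMBRD1, a cobalamin export partner of ABCD4 (adjusted p = 0.0989). Translation partners of the soluble members had 0 of 9 called by limma, with 1 lower and 0 higher unadjusted, -0.42 for EIF2S2 (adjusted p = 0.136) and -0.34 for EIF3J.

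Promoter windows were found in the RefSeq table for 34 of the 42 genes. ABCA4, ABCA8, ABCB4, ABCB5, ABCC13, ABCC3, ABCC8 and ABCG1 had none. The 20 tested genes had a median of 20.5 CpG dinucleotides in 250 bases and the 14 genes that were not tested a median of 3, beside 11 over all 35116 promoters of that table. ABCA7 has 25 and ABCG4 has 19, against 2 for ABCB11 and 1 for ABCC2 in the sequences printed above. The split was not complete. ABCA5 was undetected with 42 CpG, and ABCA9, ABCA10 and ABCC11 were tested with 1, 2 and 0. The GC box GGGCGG, read on both strands, occurred in 14 of the 20 tested genes (70.0%), 4 of the 14 others (28.6%) and 42.6% of all promoters. The TATA sequence TATAAA, also on both strands, occurred in 4 tested genes and 1 other, beside 10.7% of all promoters. The same split into tested and untested genes was not computed over all named genes. Whether the contrast is particular to the ABC family was therefore not tested. Each window stands at the annotated gene start alone, other starts were not examined, and these counts are a description with no test.

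**Figure D5:**
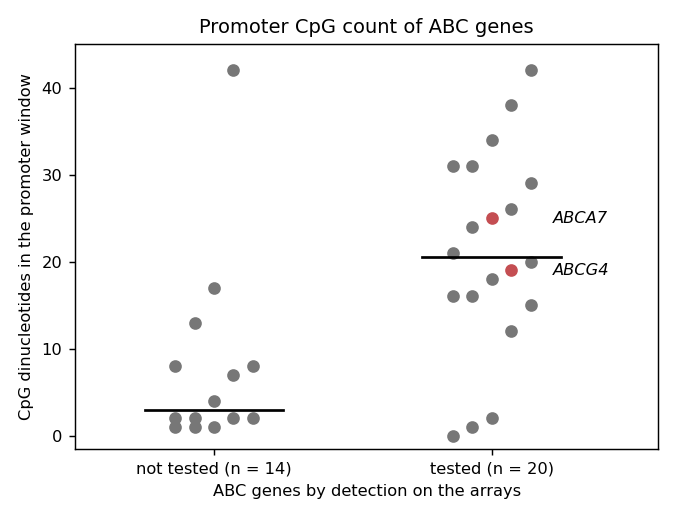
CpG dinucleotides in the 250 bases before the annotated start of each ABC gene (points), for 14 genes that were not tested and 20 that were; the line is the median and red points are called genes. Medians are 3 and 20.5, and ABCA7 and ABCG4 lie near the median of the tested genes.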

How the data were processed

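Per the file headers, the deposited bead table gives an average intensity with its detection p-value per probe on every array. The authors' second table was taken from its values to be log2 intensity. Its 6 columns hold the same sorted values within 0.0005, so it was taken as quantile-normalised. The submitters' processing notes name GenomeStudio and lumi, and no setting is given in the sources used here.

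The background was removed and arrays were quantile-normalised with neqc (limma 3.58.1, R 4.3.3, offset 16, negative controls inferred from detection p), and are on a log2 scale. Probes with detection p under 0.05 on at least 3 arrays (21333) were tested with lmFit and eBayes, siHBO1 minus siCTRL, 3 arrays each, with Benjamini-Hochberg adjustment over all of them and a call at an adjusted p under 0.05. Array precision is limited by the number of arrays. Symbols came from the platform annotation and were updated through Entrez identifiers to GRCh38.p14 for 30070 probes, which changed 0 member symbols.

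In 10 simulated sets of 21333 probes with 200 changed, the fit called 25.9% of 1.5-fold, 63.5% of 2-fold and 85.4% of 3-fold changes, and 4.21% of its calls were unchanged probes. The simulated noise was drawn independently for each probe and array. Shifts shared by the probes of an array were thus absent from these sets, and the shares may not hold for the real arrays. The members, lists, alternatives and naming rule were chosen with earlier results of these data known. All tested members are given, with every array for those called on any probe, for ABCB1 and ABCG2 and for the largest change in each subfamily. ABCA1, ABCC4 and ABCG1, and NFE2L2, KEAP1 and MYLIP from the list of regulators, were added after their values were seen. From each partner list the called genes, or the 2 largest changes, are given. Alternatives changed the background correction, scaling, offset, detection filter, prior, array weights, replicate block, probe averaging and threshold, or left out 1 array.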

Additional observations from a re-analysis of the deposited data

How the results depend on the processing

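Against 582 called probes as reported, counts were 979 with the authors' processed values, 1811 without background correction, 1020 with an offset of 50, 247 with no detection filter, 1136 with detection p under 0.01 on all 6 arrays, 1886 with a trended and robust prior, 913 with array weights, 1665 at an adjusted p of 0.10 and 2 at 0.01. Leaving out 1 array gave between 1 and 271 (122 without siCTRL replicate 1, 1 without siCTRL replicate 2, 1 without siCTRL replicate 3, 6 without siHBO1 replicate 1, 3 without siHBO1 replicate 2, 271 without siHBO1 replicate 3), with fewer samples in each fit. The ABC genes called higher went from 2 to 3, with ABCA1, without background correction. They fell from 2 to 1, ABCG4, with median scaling, no detection filter or the replicate block, to 0 at an adjusted p of 0.01, and to 0 or 1 on leaving out an array. The ABC genes called lower went from 1 to 2 (ABCA7 and ABCB10) with the authors' values, an offset of 50, the strict detection filter, array weights, probe averaging or an adjusted p of 0.10. They went to 3, with ABCE1, without background correction or with the trended and robust prior. They went to 0 with no detection filter, the replicate block or an adjusted p of 0.01, and to 0 or 1 on leaving out an array. The median over the ABC genes was -0.07 when a gene's probes were averaged. Where no filter was used, 47316 probes entered the adjustment. The other causes were not tested.

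With the replicate number as a block, 282 probes were called. The deviations of same-numbered arrays correlated at 0.262, -0.019 and 0.217, and those of arrays with unlike numbers at -0.278 to 0.09. The arrays numbered 1 and 3 correlated best with their own number, and those numbered 2 did not. The labels do not say whether a number marks a shared batch, and in the main fit the numbers were taken as names only. Signs flipped only for genes that were not called: with median scaling for ABCA10 (-0.0036), ABCA4 (-0.02), ABCD3 (-0.0028) and ABCF1 (-0.06), and with probe averaging for ABCC5 (-0.07) and ABCF1 (-0.07). On leaving out an array they flipped for ABCC10 (range -0.03 to 0.14), ABCF1 (-0.02 to 0.11), ABCA2 (-0.03 to 0.2), ABCA4 (-0.15 to 0.25) and ABCA10 (-0.09 to 0.14). The signs of ABCG4, ABCC3, ABCA7 and ABCB10 held under all 16 alternatives run for them. Dim probes such as those of ABCC9 and ABCC11 limit what can be said of their size.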

Other observations

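Family members that carry other symbols lay outside the naming rule. TAP1 and TAP2, which together form the peptide transporter of antigen presentation and both lie on chromosome 6, had values of opposite sign. Neither was called. TAP1 read 10.34, 10.52 and 10.51 in siCTRL and 10.72, 10.87 and 10.79 in siHBO1 (0.34, SE 0.10, adjusted p = 0.11). TAP2 read 9.18, 9.59 and 9.44 in siCTRL and 8.74, 8.75 and 9.01 in siHBO1 (-0.57, SE 0.14, adjusted p = 0.0768), and its second probe was at -0.47 (adjusted p = 0.0952). The groups did not overlap for any of these 3 probes, where 30.9% of all named genes had groups apart in either direction. Of 4 tested peptide-loading genes 0 were called by limma. At an unadjusted p under 0.05 there was 1 higher gene and 0 lower ones. It was TAPBP, which holds class I molecules at the transporter, at 0.43 on its brightest probe (adjusted p = 0.0817) and at -0.07 and 0.02 on 2 others. ERAP1, the trimming peptidase, was at 0.12.

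CFTR, the chloride channel of the family, was detected on 2 siCTRL arrays and no siHBO1 array and was not tested. The pseudogene ABCA11P was at -0.29 (adjusted p = 0.205) with groups apart, ABCC6P2 was at -0.18, and ABCA17P and ABCC6P1 were not tested.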
